A study of Mus musculus with 13 samples.

Results

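The genes described here encode the laminins, nidogens and perlecan of the basement membrane, with dystroglycan, a laminin receptor of the cell surface. They were chosen by name for their function: 10 of the 14911 genes in the table, all 10 of them measured. They are 3 laminin alpha chains (Lama2, Lama4 and Lama5), 2 beta chains (Lamb1 and Lamb2), the gamma chain Lamc1, the nidogens Nid1 and Nid2, perlecan (Hspg2) and dystroglycan (Dag1). The first 9 are secreted matrix proteins, whereas dystroglycan sits in the cell membrane. RNA was read from whole hamstring muscle of female C57BL/6 mice at day 4 after the muscle was injected with cardiotoxin (0.32 mg/kg), a venom protein that lyses muscle fibres. All mice carried that injury. One group of 4 mice then received saline and the other group of 9 mice received dexamethasone, a synthetic glucocorticoid, at 10 mg/kg, both by daily intraperitoneal injection, with 1 library per mouse. The submitters report bone in the injured muscle of every dexamethasone mouse and left out a saline mouse in which bone had formed, so effects of the drug and of bone formation cannot be told apart.

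A basement membrane is a thin sheet of matrix that wraps each muscle fibre, each capillary and each Schwann cell. Laminins are trimers of an alpha, a beta and a gamma chain that polymerise on the cell surface. Nidogen and perlecan join the laminin sheet to a network of type IV collagen. On the cell side laminin is held by integrins and by dystroglycan, whose sugar chains bind laminin outside the cell and whose tail binds dystrophin inside it. In muscle, Lama2 makes the alpha chain of the adult fibre laminin, and loss of it causes a congenital muscular dystrophy. Lama4 and Lama5 make the alpha chains of blood vessels. Lamb2 is concentrated at the neuromuscular synapse. After injury the old sheath of the fibre remains as a scaffold in which new fibres form.

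The 10 genes as a whole differed little between the groups. Lama5 rose 1.29-fold and Hspg2 1.13-fold under dexamethasone, and the other 8 did not pass the test. The test was a linear model in limma on log2 CPM (read counts scaled to an effective library size, on a log2 scale). Its p-values were adjusted over all genes and called under 0.05. Thus 2 of 10 genes were called higher and 0 lower, where 48.1% of all genes were called, 25.2% of all genes higher and 22.9% lower. Among the 5260 genes whose mean log2 CPM was 5 or more, which all 10 exceed, 56.4% were called. In the authors' deposited table the adjusted p was 0.000669 for Lama5 and 0.0464 for Hspg2. The Hspg2 call was lost in 10 of 13 fits with 1 library left out, while Lama5 kept its call in all 24 alternatives. At an unadjusted p under 0.05 the count was likewise 2 of 10, beside 54.6% of all genes. The median log2 fold change of the 10 was 0.12, beside 0.0071 over all genes, and the median size without its sign was 0.14, beside 0.23. Over the 5260 genes of mean log2 CPM of 5 or more these medians were 0.018 and 0.18. Standard errors ran from 0.053 to 0.10. In all 10 the 95% interval of the difference lay within a 1.5-fold change in either direction, which held for 9609 of the 14911 genes. The groups did not overlap in 1 of the 10, Lama5, beside 25.8% of all genes.

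**Figure D1:**
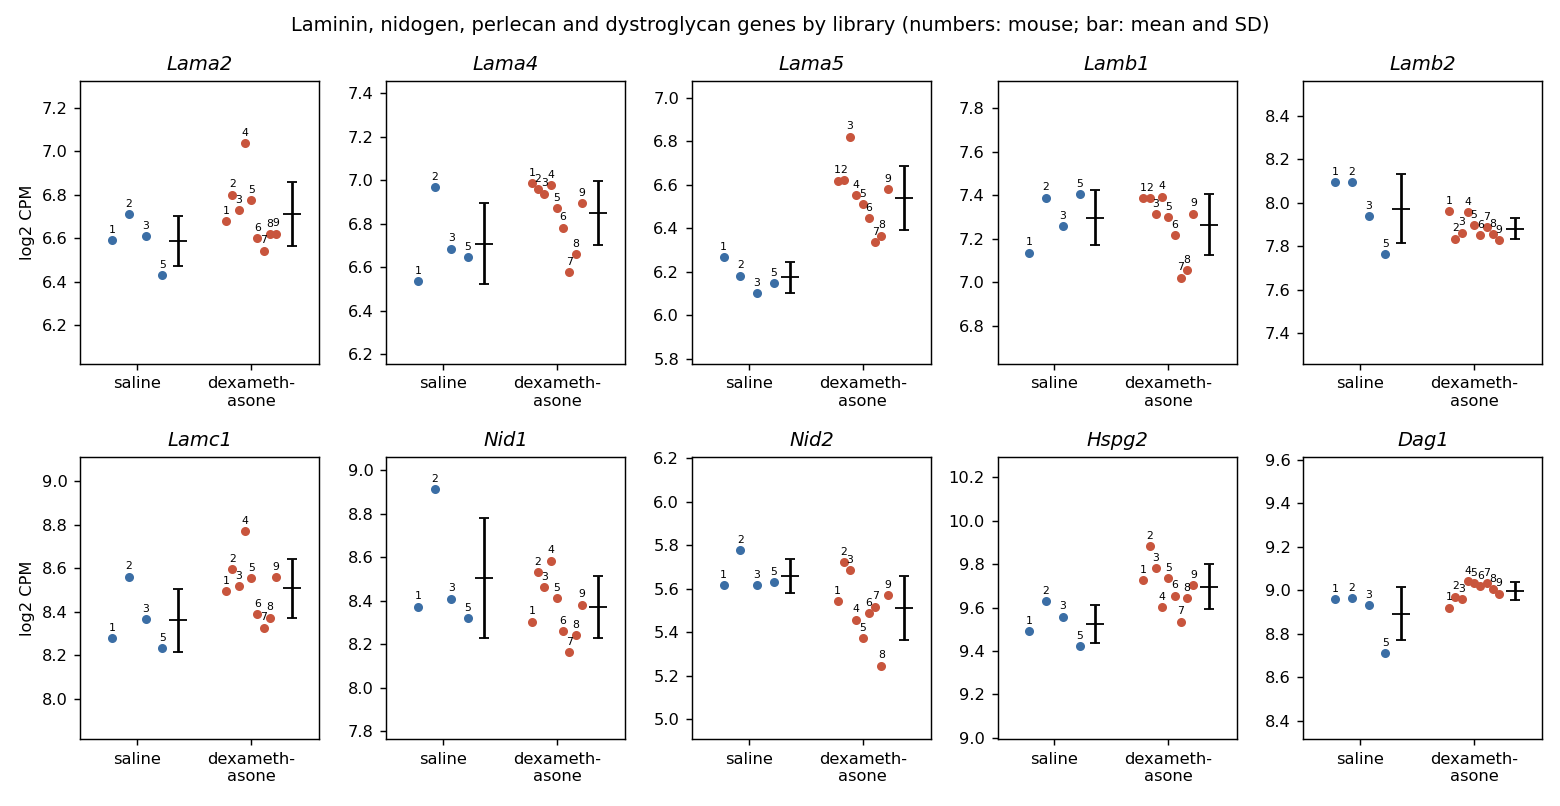
Each panel plots log2 CPM of 1 gene in the 4 saline libraries (blue) and the 9 dexamethasone libraries (red), numbered by mouse, with the mean and SD beside each group; each vertical axis spans the same range of log2 units. In Lama5 the groups are apart, with saline at 6.10 to 6.27 and dexamethasone at 6.33 to 6.82, and in the other 9 genes they overlap.

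Libraries held 25531487 to 34942266 reads over these genes of the table. The effective library size was 0.88, 0.94, 0.99 and 1.00 times these reads in saline libraries 1, 2, 3 and 5. In dexamethasone it was 0.99 to 1.10 times them. Scaling by the reads alone, which would on average place dexamethasone higher relative to saline, was not run. The scarcest of the 10, Nid2, had 1151 to 1766 reads in each library and the richest, Hspg2, had 18518 to 31576. Mature muscle fibre genes were present in all libraries, with summed levels of 126341 to 191037 CPM in saline and 85074 to 126849 in dexamethasone over 12 markers such as Ckm and Acta1. In the labels nothing but the mouse separates libraries of a group, and no sequencing batch is given.

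Levels can be compared between genes only per length, and CPM was therefore divided by the length of the annotated exons in kb. That length joins the exons of all annotated transcripts of a gene, such as 16.3 kb for Lama2 and 11.4 kb for Lama5. It can exceed the transcript present in muscle, so the order of genes close in level depends on it. Dag1 stood highest on this scale, at 74.8 ± 6.07 CPM per kb in saline and 80.3 ± 2.25 in dexamethasone (SD, n = 4 and 9). Hspg2 came next at 51.6 ± 3.15 and 58.1 ± 4.15, and then Nid1 at 53.1 ± 11 and 47.9 ± 4.69. Hspg2 was above Nid1 in 11 of 13 libraries, so this pair was not ordered in all of them. Lamc1 had 39.9 ± 4.16 and 44.2 ± 4.24 CPM per kb and Lamb2 had 41.5 ± 4.39 and 38.8 ± 1.33. Lamc1 was the higher of this pair in 2 of 4 saline and 8 of 9 dexamethasone libraries. Lamb1 followed with 15.9 ± 1.37 and 15.6 ± 1.46, above Lama4 in 13 of 13 libraries. Nid2 and the 3 alpha chains formed the low end. Nid2 was at 9.79 ± 0.55 CPM per kb in saline and 8.86 ± 0.89 in dexamethasone, and Lama4 at 8.72 ± 1.16 and 9.59 ± 0.93. Their order turned between the groups, with Nid2 above Lama4 in 4 of 4 saline libraries and Lama4 above Nid2 in 8 of 9 dexamethasone libraries, which was not tested. Lama5 had 6.34 ± 0.31 and 8.20 ± 0.86 CPM per kb, and Lama2 5.89 ± 0.47 and 6.44 ± 0.70. The gamma chain transcript was thus more abundant per length than the transcript of each alpha chain.

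**Figure D2:**
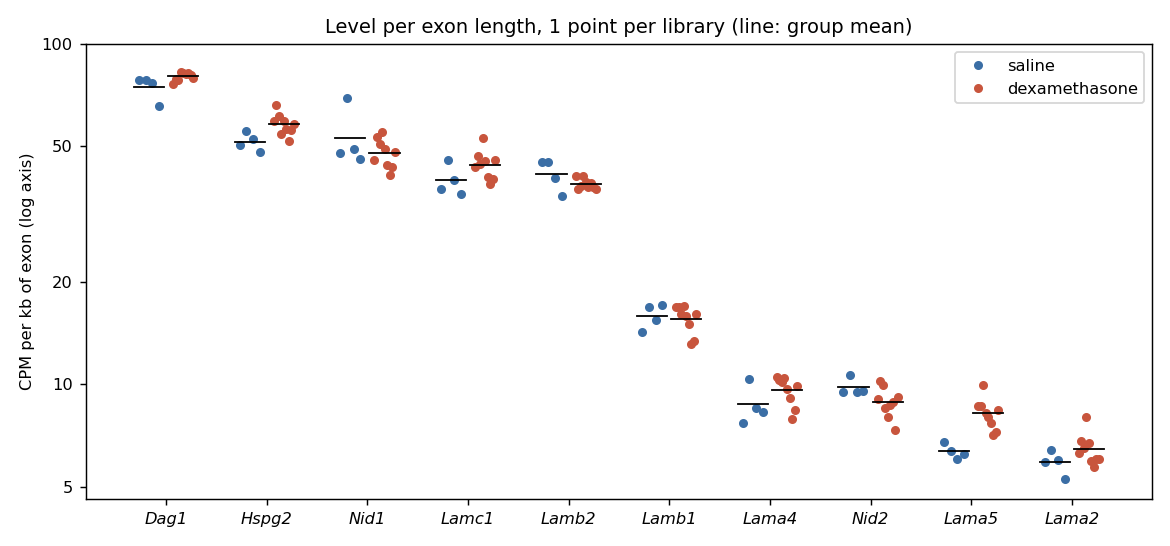
CPM per kb of exon on a log axis for the 10 genes in order of their mean, 1 point per library (blue saline, red dexamethasone) with a line at each group mean. By these exon lengths Dag1 is highest, at 65.8 to 82.9 over all libraries, and Lama2 lowest, at 5.28 to 8.03.

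Lama5, Hspg2 and Lama2 stand for the 2 genes that rose and for the fibre alpha chain that did not pass the test. Their promoter windows are printed, from 250 bases before to 50 after a start site of each. They read 5′ to 3′ on the strand of the gene, from RefSeq on build GRCm38.p6. They lie at chr2:180225810-180226109 on the minus strand (Lama5), chr4:137468553-137468852 on the plus strand (Hspg2) and chr10:27616893-27617192 on the minus strand (Lama2). Each start site lies within the gene span given below. Nearly all of the Lama2 window lies within its span too, so those bases do not precede the gene. Capitals mark GC boxes, GGGCGG or its reverse complement CCGCCC, and the hexamer TGTTCT or AGAACA, 1 arm of the site of the glucocorticoid receptor.
Lama5: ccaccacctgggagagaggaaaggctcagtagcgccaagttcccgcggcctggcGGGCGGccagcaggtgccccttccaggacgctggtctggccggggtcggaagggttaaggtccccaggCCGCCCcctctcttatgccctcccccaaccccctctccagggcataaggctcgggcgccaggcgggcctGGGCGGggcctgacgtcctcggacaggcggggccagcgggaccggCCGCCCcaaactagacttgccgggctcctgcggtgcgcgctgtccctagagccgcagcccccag
Hspg2: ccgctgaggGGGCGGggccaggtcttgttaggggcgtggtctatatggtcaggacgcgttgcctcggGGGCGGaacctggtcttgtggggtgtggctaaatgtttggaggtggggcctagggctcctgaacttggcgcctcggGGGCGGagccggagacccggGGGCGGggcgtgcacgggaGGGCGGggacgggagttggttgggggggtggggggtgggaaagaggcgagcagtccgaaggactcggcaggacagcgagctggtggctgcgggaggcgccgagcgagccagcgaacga
Lama2: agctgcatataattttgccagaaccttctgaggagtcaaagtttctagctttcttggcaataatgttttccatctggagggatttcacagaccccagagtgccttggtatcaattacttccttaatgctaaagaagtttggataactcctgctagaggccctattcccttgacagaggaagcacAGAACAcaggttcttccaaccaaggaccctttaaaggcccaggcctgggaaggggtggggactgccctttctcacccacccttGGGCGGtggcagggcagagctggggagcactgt
The Lama5 window held 4 GC boxes and 0 receptor hexamers, the Hspg2 window 5 and 0, and the Lama2 window 1 and 1. Promoter windows were matched for 7 of the 10 genes. In the others the GC boxes numbered 2 in Lamb1, 1 in Nid1, 0 in Lamb2, and 3 and 4 at the 2 start sites of Dag1, with 0 receptor hexamers in each. A GC box occurs in 35.6% of all 32817 promoter windows of this length and a receptor hexamer in 19.0%, on either strand. The full palindromic receptor site, the pair of hexamers with a spacer between them, contains the hexamer and occurs in 3 of them and in none of these 7 genes. A TATA box (TATAAA or TTTATA, in 13.6% of all windows) was found in none of the 7, and a CCAAT box (CCAAT or ATTGG, in 37.4%) in Lamb1, Nid1 and Dag1. The Lama5 window is 72.7% G and C, that of Hspg2 70.3% and that of Lama2 50.3%, against a median of 52.7% over all windows. These matches describe letters in a short window and say nothing of binding.

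Among the alpha chains, Lama5 (Entrez 16776, chromosome 2, 180176373 to 180225904 on GRCm38.p6, the build of all positions here) was at 6.27, 6.18, 6.10 and 6.15 log2 CPM in saline libraries 1, 2, 3 and 5. In the 9 dexamethasone libraries it ran from 6.33 through a median of 6.55 to 6.82. All 9 lay above every saline library, the lowest being library 7 and the highest library 3. This was a log2 fold change of 0.37 ± 0.073 (SE; 95% interval 0.21 to 0.52; adjusted p 0.000748, limma). Lama5 encodes a chain of the laminins of mature vessels, nerve endings and most epithelia. Whether more cells that make it or more RNA per cell lay behind the rise cannot be told apart in whole muscle. The same limit holds for the other values here.

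Lama2 (Entrez 16773, chromosome 10, 26981285 to 27617191) was at 6.59, 6.71, 6.61 and 6.43 log2 CPM in the saline libraries. The dexamethasone libraries ran from 6.54 through a median of 6.68 to 7.04, and the highest was library 4. The groups overlapped, and the log2 fold change was 0.13 ± 0.077 (SE; 95% interval -0.038 to 0.29; adjusted p 0.193, limma). It was 0.085 without dexamethasone library 4 and 0.073 without saline library 5. In this gene 4 of 9 dexamethasone libraries were above every saline library and 0 below.

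Lama4 (Entrez 16775, chromosome 10, 38965515 to 39110188), whose chain lies mainly in the sheath of small vessels, was at 6.53, 6.97, 6.68 and 6.65 log2 CPM in saline. Dexamethasone libraries ran from 6.58 through 6.89 to 6.98. Saline library 2 lay among the higher dexamethasone libraries, and the other 3 saline libraries at the low end. Its log2 fold change was 0.14 ± 0.085 (SE; 95% interval -0.040 to 0.32; adjusted p 0.186, limma). Without saline library 2 it was 0.23 and passed (adjusted p 0.0391, limma), as in the 8 libraries numbered in both groups, with and without the mouse number as a block (adjusted p 0.0446 and 0.0484).

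The balance of alpha chains was followed as the ratio of CPM within each library, which does not depend on how a library was scaled. The log2 ratio of Lama5 to Lama2 was -0.32, -0.53, -0.51 and -0.28 in saline libraries 1, 2, 3 and 5. In dexamethasone it ran from -0.48 through a median of -0.18 to 0.093. Of the 9 dexamethasone libraries 8 lay above every saline library, and library 4, where Lama2 was highest, lay at the bottom. The difference was 0.24 on the log2 scale (exact permutation test, two-sided, p 0.0224, or 0.0839 adjusted over 6 ratios). Without dexamethasone library 4 it was 0.28 and passed (exact permutation, adjusted p 0.0242).

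The log2 ratio of Lama5 to Lama4 went from -0.53 ± 0.21 to -0.31 ± 0.088 (SD, n = 4 and 9; exact permutation p 0.028, adjusted p 0.0839). This difference of 0.22 was 0.14 without saline library 2 and 0.31 without saline library 1. For Lama4 to Lama2 the difference was 0.015 (exact permutation p 0.834, adjusted p 0.937). As a share of the 3 alpha chains summed per length, Lama5 made up 30.4% ± 2.48 in saline and 33.8% ± 1.71 in dexamethasone (SD, n = 4 and 9). Lama4 was the largest of the 3 shares in both groups, at 41.5% ± 2.88 and 39.6% ± 1.08. The sizes of these shares depend on the exon lengths used.

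**Figure D3:**
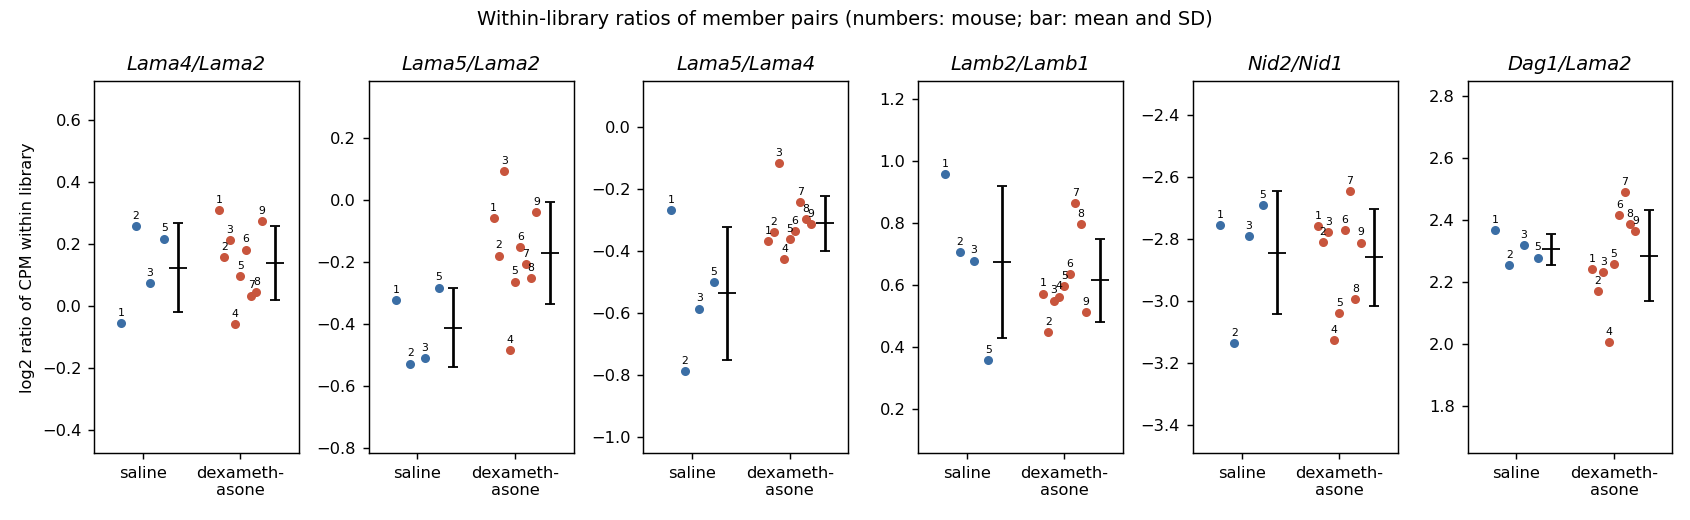
Log2 ratio of CPM within each library for 6 pairs of genes, numbered by mouse, with the mean and SD beside each group. The groups overlap in all 6 ratios. For Lama5 to Lama2, 8 of 9 dexamethasone libraries lie above every saline library. For Lama5 to Lama4, 2 of 9 do, and all 9 lie above each saline library except library 1.

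Of the beta and gamma chains none passed the test. Lamb1 (Entrez 16777, chromosome 12, 31265146 to 31329644) had 7.30 ± 0.13 log2 CPM in saline and 7.27 ± 0.14 in dexamethasone (SD, n = 4 and 9). The interval of its log2 fold change was -0.19 to 0.13. Lamb2 (Entrez 16779, chromosome 9, 108479847 to 108490530) was at 8.09, 8.10, 7.94 and 7.77 in saline libraries 1, 2, 3 and 5. Dexamethasone libraries lay within that span, from 7.83 to 7.96. Its log2 fold change was -0.092 ± 0.057 (SE; 95% interval -0.21 to 0.030; adjusted p 0.20, limma), and -0.16 without saline library 5, where it passed as lower (adjusted p 0.0134, limma). The log2 ratio of Lamb2 to Lamb1 was 0.68 ± 0.25 in saline and 0.62 ± 0.13 in dexamethasone (SD, n = 4 and 9; exact permutation p 0.568, adjusted p 0.937). Per length Lamb2 made up 72.2% ± 3.43 and 71.4% ± 1.86 of the 2 beta chain transcripts.

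Lamc1 (Entrez 226519, chromosome 1, 153218922 to 153332786) makes the gamma chain shared by most laminins. It was at 8.28, 8.56, 8.37 and 8.23 log2 CPM in saline, and in dexamethasone it ran from 8.33 through a median of 8.52 to 8.77. Saline library 2 was again the highest of its group and dexamethasone library 4 the highest of all. The log2 fold change was 0.15 ± 0.078 (SE; 95% interval -0.017 to 0.31; adjusted p 0.128, limma). Without saline library 2 it was 0.22 and passed (adjusted p 0.042, limma), as it did at 0.20 with quantile normalisation (adjusted p 0.0483).

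Of the linkers, perlecan rose and the nidogens did not pass. Hspg2 (Entrez 15530, chromosome 4, 137468751 to 137570630), a large heparan sulfate proteoglycan that binds growth factors as well as laminin, was at 9.49, 9.63, 9.56 and 9.42 log2 CPM in saline. In dexamethasone it ran from 9.54 through 9.70 to 9.88, with 7 of 9 libraries above every saline library. The log2 fold change was 0.17 ± 0.066 (SE; 95% interval 0.030 to 0.31; adjusted p 0.0442, limma). This call lay close to the threshold and was lost on leaving out any of 10 of the 13 libraries: each saline library but 2, and each dexamethasone library but 4 and 7. It was also lost with median centring, robust priors or library weights. The log2 fold change in the 13 fits with 1 library left out was 0.14 to 0.20.

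Nidogens are rod-like proteins that bind the laminin gamma chain. Nid1 (Entrez 18073, chromosome 13, 13437602 to 13512275) was at 8.37, 8.91, 8.41 and 8.32 log2 CPM in saline and at 8.16 to 8.58 in dexamethasone. Saline library 2 stood above all other 12 libraries. The log2 fold change of -0.13 ± 0.10 (SE; 95% interval -0.35 to 0.079; adjusted p 0.288, limma) rested on it, being 0.0030 without it. Nid2 (Entrez 18074, chromosome 14, 19751257 to 19811787) was at 5.62, 5.78, 5.62 and 5.63 in saline and ran from 5.25 through 5.52 to 5.72 in dexamethasone. For Nid2, 7 of 9 dexamethasone libraries were below every saline library. Its log2 fold change was -0.15 ± 0.074 (SE; 95% interval -0.31 to 0.0078; adjusted p 0.108, limma), and with quantile normalisation it was -0.20 and passed as lower (adjusted p 0.0405). Exons of Nid2 overlap those of Rtraf on the opposite strand, and those of Nid1 and Lama2 overlap an antisense transcript each. The libraries keep strand, but the sources used here give no strand setting for the counting. The log2 ratio of Nid2 to Nid1 differed by -0.015 (exact permutation p and adjusted p 0.937).

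Dag1 (Entrez 13138, chromosome 9, 108204861 to 108263977) was at 8.96, 8.96, 8.93 and 8.71 log2 CPM in saline libraries 1, 2, 3 and 5 and at 8.92 to 9.04 in dexamethasone. It was the steadiest of the 10 under dexamethasone, with an SD of 0.041 over 9 libraries. The log2 fold change was 0.11 ± 0.053 (SE; 95% interval -0.0080 to 0.22; adjusted p 0.116, limma), and 0.045 without saline library 5, the lowest. Under quantile normalisation it was 0.17 and passed (adjusted p 0.00864, limma). The log2 ratio of Dag1 to Lama2, receptor to ligand, was 2.31 ± 0.049 in saline and 2.28 ± 0.15 in dexamethasone (SD, n = 4 and 9; exact permutation p 0.839, adjusted p 0.937).

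**Figure D4:**
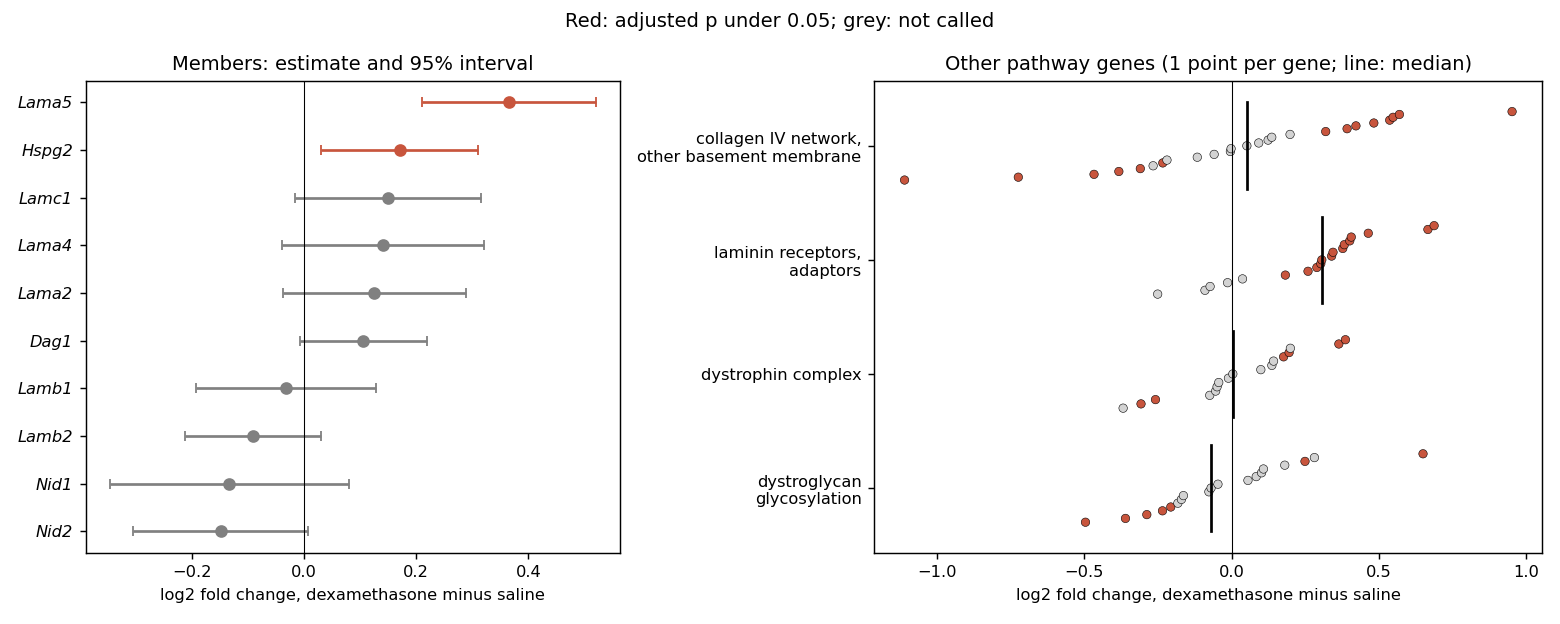
Left, log2 fold change of each of the 10 genes with its 95% interval; right, log2 fold changes of single genes in 4 lists of the same pathway, with a line at each list's median; red marks an adjusted p under 0.05. On the left only the intervals of Lama5 (0.21 to 0.52) and Hspg2 (0.030 to 0.31) lie above 0. On the right 14 of 19 laminin receptors and adaptors are red and higher, beside 25.2% of all genes called higher.

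Variation among mice of a group was compared between the 10 genes. After each group's mean was subtracted, the median Pearson r over the 45 pairs was 0.48 across 13 libraries, from -0.41 (Lamb1 with Dag1) to 0.91 (Lamc1 with Nid1), and 40 pairs were above 0. All genes of a library share its scaling factor. Lama2 was most like Lamc1 (r 0.90, and 0.82 without the 2 libraries farthest from the median of Lama2). Lama4 and Lamb1 were each nearest to the other (r 0.88). Lama5 was nearest to Nid2 (r 0.64), and Hspg2 to Lama4 (r 0.68). Lamb2 and Dag1 were each nearest to the other (r 0.72), with 0.22 without saline libraries 2 and 5 and 0.79 without saline library 5 and dexamethasone library 1. All 10 genes were above their group mean in saline library 2, and 1 of 10 was in saline library 5 and in dexamethasone libraries 6 and 8.

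**Figure D5:**
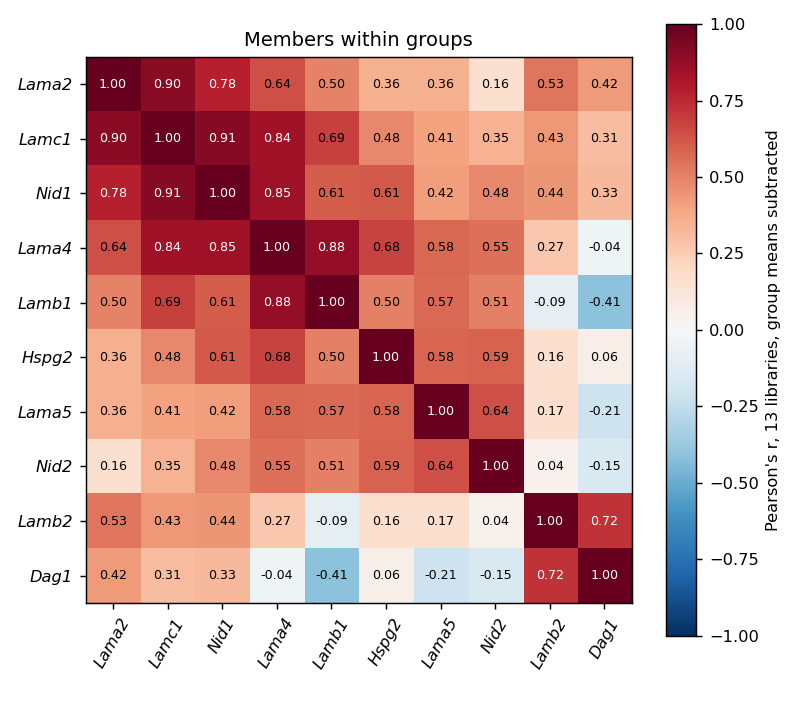
Pearson's r between the 10 genes over 13 libraries after subtracting the group means, from blue (-1) to red (1). Lama2, Lamc1, Nid1 and Lama4 form a block of high values, with r of 0.64 to 0.91. Lama4 with Lamb1 (0.88) and Lamb2 with Dag1 (0.72) are also high, and Lamb1 is below 0 with Lamb2 and Dag1.

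Outside the 10, the gene whose within-group pattern was most like both Lamc1 and Lama2 among 10058 candidates was Slit3, a secreted guidance protein (r 0.94 and 0.96, Spearman's rho 0.92 and 0.94, 13 libraries). Slit3 rose under dexamethasone, by 0.78 ± 0.12 on the log2 scale (SE; adjusted p 8.07e-05, limma). Next for Lamc1 were Sox13, Tgfbr3, Ephb4 and Zzef1, with r of 0.88 to 0.91. Next for Lama2 were Gprc5b, Gfpt2, Tgfbr3 and Sox13, with r of 0.90 to 0.96. These were the highest of many correlations and carry no test.

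Of scarcer laminin chains, Lamb3, a beta chain of epithelial laminin, and Lama1, an embryonic alpha chain, rose. Lamb3 had a log2 CPM of 1.74 ± 0.29 in saline and 2.96 ± 0.27 in dexamethasone (SD, n = 4 and 9), a 2.34-fold rise (limma, adjusted p 1.17e-05). All 9 dexamethasone libraries were above every saline library for Lamb3, and groups did not overlap in 25.8% of all genes. Lamb3 was named because its adjusted p was the smallest of its list. The rise of Lama1 was 0.97 ± 0.35 on the log2 scale (SE; adjusted p 0.0301, limma), on as few as 8 reads in a library. It lost its call without saline library 1 (adjusted p 0.0962, limma), saline library 2 (adjusted p 0.156) or dexamethasone library 2 (adjusted p 0.0502). The call was also lost with library weights (adjusted p 0.0969, limma), voom (adjusted p 0.0515), the mouse number as a block (adjusted p 0.0623) and the 8 libraries numbered in both groups without that block (adjusted p 0.0811). Lama1 rose by 0.45 in place of 0.97 on the scale of log2 of CPM plus 1, and the value was 0.60 without saline library 2.

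Of 25 genes of the type IV collagen network and other basement membrane proteins, 8 rose and 6 fell (median 0.052). Over all genes 25.2% were called higher and 22.9% lower. Col18a1, whose collagen carries heparan sulfate and releases endostatin, rose 1.46-fold (adjusted p 0.000128, limma), and Fbln1, a fibulin, 1.40-fold (adjusted p 2.60e-05). Agrn, which encodes the proteoglycan that clusters acetylcholine receptors at the synapse, was 1.38-fold lower (adjusted p 7.92e-05, limma). In each of these 3 the groups did not overlap, beside 25.8% of all genes. The 3 were named for the smallest adjusted p of their list, so their separation adds little. Col4a1 and Col4a2, the main type IV collagen chains to which nidogen and perlecan link laminin, rose 1.34- and 1.31-fold. They were named after their values were seen. Without saline library 2 the genes that fell numbered 3 in place of 6.

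Of 19 receptors of laminin and their adaptors, 14 rose and 0 fell, beside 25.2% and 22.9% of all genes. The median log2 fold change was 0.31, beside 0.0071 over all genes. This list was chosen with earlier results of these data known. Itga7 and Itgb1 encode the integrin that binds laminin on muscle fibres. Itga7 rose from a log2 CPM of 7.91 ± 0.10 to 8.38 ± 0.060 (SD; limma, adjusted p 4.19e-06) and Itgb1 from 8.77 ± 0.091 to 9.17 ± 0.053 (limma, adjusted p 1.66e-05). Sdc4, a syndecan of focal adhesions, rose 1.61-fold (adjusted p 2.68e-06, limma). In these 3 genes all 9 dexamethasone libraries were above every saline library, and groups did not overlap in 25.8% of all genes. They too were named for the smallest adjusted p of their list, so their separation adds little. The summed level of the 19 genes was 2223 to 2316 CPM in saline and 2615 to 2822 in dexamethasone, with no overlap. The count of rises was 12 to 14 under all alternatives run.

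The dystrophin complex holds dystroglycan from inside the fibre. Of its 17 measured genes 4 rose and 2 fell (median 0.0044), and Sgcz was not analysed here. Sntb2, a syntrophin, rose 1.31-fold (adjusted p 0.00131, limma), while Sgca, a sarcoglycan, and Sspn, sarcospan, were 1.24- and 1.20-fold lower (adjusted p 0.00314 and 0.00641, limma). The rises numbered 2 without saline library 2, 3 or 5 or dexamethasone library 8, 2 also with median centring, quantile normalisation or the mouse number as a block, and 1 in the 8 libraries numbered in both groups without that block. Of 19 enzymes that build the sugars of dystroglycan, 2 rose and 5 fell (median -0.069). Both lists stand beside 25.2% of all genes called higher and 22.9% lower. Gmppb, which makes GDP-mannose, rose 1.57-fold (adjusted p 0.000152, limma), and the N-acetylglucosamine transferases Pomgnt2 and Pomgnt1 were 1.41- and 1.18-fold lower (adjusted p 0.000352 and 0.000462, limma). The falls numbered 3 without saline library 2 or 3 or dexamethasone library 3 or 4, with library weights and in the 8 numbered libraries without the block. They numbered 7 without saline library 5 and with median centring or quantile normalisation.

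Markers of the cells that could make these chains were read in the same libraries. Their counts stand beside 25.2% of all genes called higher and 22.9% lower. Of 12 endothelial markers 1 rose and 2 fell, and their summed level was 422 to 487 CPM in saline and 402 to 490 in dexamethasone. Of 10 pericyte and smooth muscle markers 3 rose and 0 fell, with sums of 901 to 1096 and 963 to 1154 CPM. Of 12 mature fibre markers 0 rose and 5 fell, and of 10 regenerating fibre and myoblast markers 4 rose and 2 fell, with sums of 3762 to 4998 and 2625 to 3920 CPM. Of 10 fibro-adipogenic progenitor markers 2 rose and 4 fell, with sums of 2440 to 3225 and 2978 to 3471 CPM. Of 10 Schwann cell markers 2 rose and 2 fell, with sums of 278 to 340 and 213 to 300 CPM, and of 10 macrophage markers 3 rose and 1 fell, with sums of 1885 to 2738 and 2265 to 3051 CPM. Sums follow the most abundant genes, here Gsn in the progenitors and Myh3 and Myh8 in the regenerating fibres. Gsn rose, and Myh3 and Myh8 fell. The mean log2 CPM over the markers was 7.48 in saline and 7.41 in dexamethasone for the progenitors. It was 6.99 and 7.04 for the regenerating fibres. For the mature fibres the mean was 12.9 and 12.4, and the groups did not overlap. For the pericyte and smooth muscle markers it was 5.67 and 5.85, with 8 of 9 dexamethasone libraries above every saline library. The means were 4.89 and 4.85 for endothelial, 3.16 and 3.14 for Schwann cell and 6.87 and 7.10 for macrophage markers. No marker was at 0 reads in any library. The part of these cell types in the rises of Lama5, Hspg2 and the integrins was not tested.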

How the data were processed

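RNA of whole injured hamstring muscle from 13 mice, 4 saline and 9 dexamethasone, was made into stranded libraries after selection of polyadenylated RNA, per the labels' protocols. Reads were counted with featureCounts 2.0.1 and handled with limma 3.50.1 on mm10, per the submitters' processing notes. In the sources used here no aligner, gene filter or strand setting is given. The authors deposited log2 CPM for each mouse. The deposited p-values of their own comparison are quoted for Lama5 and Hspg2 only. The table normalised without the excluded saline mouse (14911 genes) was used throughout. A further deposited table (14970 genes) served as an alternative, and its 1 column for that mouse was not used. Each log2 value came from reads plus 0.5 divided by an effective size, and 100% of values gave back a whole number of reads within 0.01.

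Groups were compared with limma 3.58.1 (R 4.3.3), with an intensity trend, two-sided, Benjamini-Hochberg over all genes, called under 0.05. Fold changes are differences of mean log2 CPM. Ratios within libraries were compared by exact permutation (scipy 1.17.1; the smallest two-sided p is 0.0028). Exon lengths were from GENCODE M21; gene coordinates and promoters were from RefSeq on GRCm38.p6, matched by Entrez identifier. Per list of other pathway genes, up to 3 called genes with the smallest adjusted p were named where mean log2 CPM was 0 or more, beside the 5 genes most like Lamc1 and Lama2 (mean log2 CPM 3 or more). The genes, lists and rules were chosen with earlier results of these data known. The result of 1 list as a whole is not reported here. The fit was tested on simulated data. Mouse numbers shared by both groups are names of separate mice. Alternatives were the other table, median centring, quantile normalisation, a minimum mean log2 CPM of 1, log2 of CPM plus 1, no trend, voom on the recovered reads, library weights, robust priors, the mouse number as a block, and each library left out. Figures were drawn with matplotlib 3.10.9.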

Additional observations from a re-analysis of the deposited data

Results flagged for a closer look

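In 76 groups of libraries, over the genes named above and the 6 ratios, 6 had a highest or lowest library set apart from the rest, where chance gives about 1 in 20. Of the 10 basement membrane genes, 3 had such a library, all in saline. Nid1 was at 8.91 log2 CPM in saline library 2, with the other 3 at 8.32 to 8.41. Nid2 was at 5.78 in the same library, with the others at 5.62 to 5.63. Dag1 was at 8.71 log2 CPM in saline library 5, with the others at 8.93 to 8.96. Among the other named genes, Lamb3 was at 2.17 log2 CPM in saline library 3, with the others at 1.55 to 1.63. Dexamethasone library 4 was high for Sdc4, at 6.25 log2 CPM against 5.77 to 5.96 in the other 8, and for Gfpt2, at 6.14 against 5.32 to 5.67.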

How the results depend on the processing

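The rise of Lama5 kept its direction and its call in all 24 alternatives run, with log2 fold changes of 0.33 to 0.47. The Hspg2 rise kept its direction in all 24 but its call in 11. The number of the 10 genes called higher, 2 in the report, was 1 with median centring, robust priors or library weights and 4 with quantile normalisation, and ranged from 1 to 4 with 1 library left out. The number called lower, 0 in the report, was 1 with quantile normalisation (Nid2) and ranged from 0 to 1 with 1 library left out. The cause was not tested. Genes called over the whole table numbered 7173, and 5959 to 7229 in the alternatives. The Lama5 to Lama2 ratio differed by 0.20 to 0.28 with 1 library left out and passed only without dexamethasone library 4 (exact permutation, adjusted p 0.0242; 0.0242 to 0.273 over its alternatives). With the mouse number as a replicate block on the 8 libraries numbered in both groups, 3 of the 10 were called higher (Lama4 joined, log2 fold change 0.23) and 0 lower, and 5959 genes in all. The same 8 libraries without the block, an alternative chosen after seeing the data, also gave 3, and 6124 genes in all. Deviations of same-numbered mice correlated at -0.070 to 0.12 across genes. The dexamethasone mouse nearest to saline mouse 5 bore the same number, and those nearest to saline mice 1, 2 and 3 did not. Such low correlations cannot settle whether the numbers pair the mice. The counts in the 4 lists of other pathway genes and their named genes were rerun under the same alternatives after the data were seen. Saline had 4 libraries, so single saline libraries weigh most.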
